A study of Craterostigma plantagineum with 12 samples.

Results

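Leaves of the resurrection plant Craterostigma plantagineum that had been desiccated and then rehydrated for 24 h were compared with leaves that were still desiccated. Both groups hold 3 libraries, so the comparison uses 6 of the 12 libraries in the count table, chosen by the table's columns of total reads for the 24 h and the 2% states. Rehydrated leaves came from plants that had dried in their pots for 15 days and were then kept under water for 24 h. Desiccated leaves came from plants that had dried for 15 days and had a relative water content (RWC) of 2%. Partly dried leaves, at about 60% RWC after 3 to 4 days without water, and fresh leaves at 100% RWC serve here only as levels to set beside the pair. All plants were propagated vegetatively and kept at 60% humidity, with 14 h of light at 24 °C and 8 h of dark at 20 °C, and each library is an independent pool of leaves from 6 to 9 plants. Water content, submersion and the added day cannot be told apart in this design, which has no submerged fresh plants, and the hour of collection is not given in the sources used here.

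Resurrection plants survive the loss of nearly all the water in their leaves and resume growth when water returns. Their drying leaves fill with late embryogenesis abundant (LEA) proteins, small hydrophilic proteins that also protect drying seeds, and with early light-induced proteins, which sit in the thylakoid membrane and are linked to protection from excess light. The hormone abscisic acid (ABA) drives much of this programme through receptors that inhibit PP2C phosphatases and so free SnRK2 kinases. On rewetting, photosynthesis, protein synthesis and wall growth have to be rebuilt, and Craterostigma is known for the stored sugar octulose and for transketolase genes that are transcribed on rehydration.

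The features counted are contigs of a transcriptome assembly, 48045 in all with a median length of 522 bases, and 40906 of them carry a description from a green plant. Several contigs can come from a single gene, related copies can share reads, and a contig and a transcript of the opposite strand cannot be told apart, since the strand setting of the counting is not given. The rehydrated libraries held 15562432 to 17265650 counted reads and the desiccated ones 14787562 to 21271288, of which 98.52 to 98.59% matched 1 contig. Levels are given as RPKM, reads scaled by the length of the contig and the size of the library, and differences as log2 fold, rehydrated over desiccated, with their standard error. The log2 folds use TMM scaling, which assumes that most contigs do not differ between libraries. Here 66.2% of tested contigs were called, so the balance of higher and lower contigs depends on that assumption. The log2 folds run 0.40 below the log2 ratio of RPKM. The median contig had a log2 fold of 0.08 with TMM and of 0.48 when libraries were scaled by their totals alone. In whole leaves, fewer cells of a type and less RNA per cell cannot be told apart.

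Rehydrated replicate 3 stood apart from the other 2 rehydrated libraries. Its log2 CPM values correlated at 0.954 and 0.958 with theirs, against 0.981 between replicates 1 and 2 and 0.986 to 0.991 among the desiccated libraries. In replicate 3, 1383 contigs were at least 2-fold above both other rehydrated libraries and 351 at least 2-fold below both. The corresponding counts were 58 and 241 in replicate 1 and 38 and 175 in replicate 2. The biological coefficient of variation was 0.263 among rehydrated and 0.133 among desiccated libraries, and 0.157 among the rehydrated ones without replicate 3. Differences from desiccated leaves that rest on replicate 3 are given with and without it.

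Markers of leaf mesophyll, the photosynthetic tissue, were present in all 6 libraries. They are chlorophyll a-b binding proteins and Rubisco small chains, and so share contigs with the light-harvesting and Calvin cycle lists below. This list took 2.1, 1.76 and 1.42% of reads in rehydrated leaves and 0.482, 0.431 and 0.317% in desiccated leaves. Root markers took 0.0231 to 0.0259% in rehydrated and 0.0278 to 0.0307% in desiccated leaves, and flower and pollen markers took 0.0365 to 0.043% in rehydrated and 0.0233 to 0.0264% in desiccated leaves. Of the 15 root contigs 14 could be tested and 11 were lower in rehydrated leaves, or 4 when libraries were scaled by their totals alone. Of the 67 flower and pollen contigs 56 could be tested, with 21 higher and 19 lower (37.5 and 33.9%). Over all contigs tested these shares were 35.3 and 30.9%. Contigs with no description from a green plant took 4.95 to 5.29% of reads in rehydrated and 5.24 to 5.49% in desiccated leaves. The part of these markers in the results below was not tested.

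Rehydration for 24 h was accompanied by a difference at most of the transcriptome. Of 44336 contigs tested, 29346 (66.2%) were called at an adjusted p below 0.05 (quasi-likelihood F test in edgeR, adjusted by Benjamini and Hochberg's method). In rehydrated leaves 15660 contigs (35.3%) rose and 13686 (30.9%) fell. A difference of at least 2-fold was called for 12730 contigs that rose (28.7%) and 9198 that fell (20.7%), and one of at least 32-fold for 1502 that rose and 157 that fell. Among all contigs tested, 37.8% were higher and 34.1% lower with no overlap between the 2 groups' libraries. Called contigs were thus higher in 53.4% of cases, and this share was 67.8% when libraries were scaled by their totals alone. A total of 329 tested contigs had no read in any desiccated library, against 7 with none in any rehydrated library. Without rehydrated replicate 3, 28269 of the 29346 called contigs were called with the same sign.

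**Figure D1:**
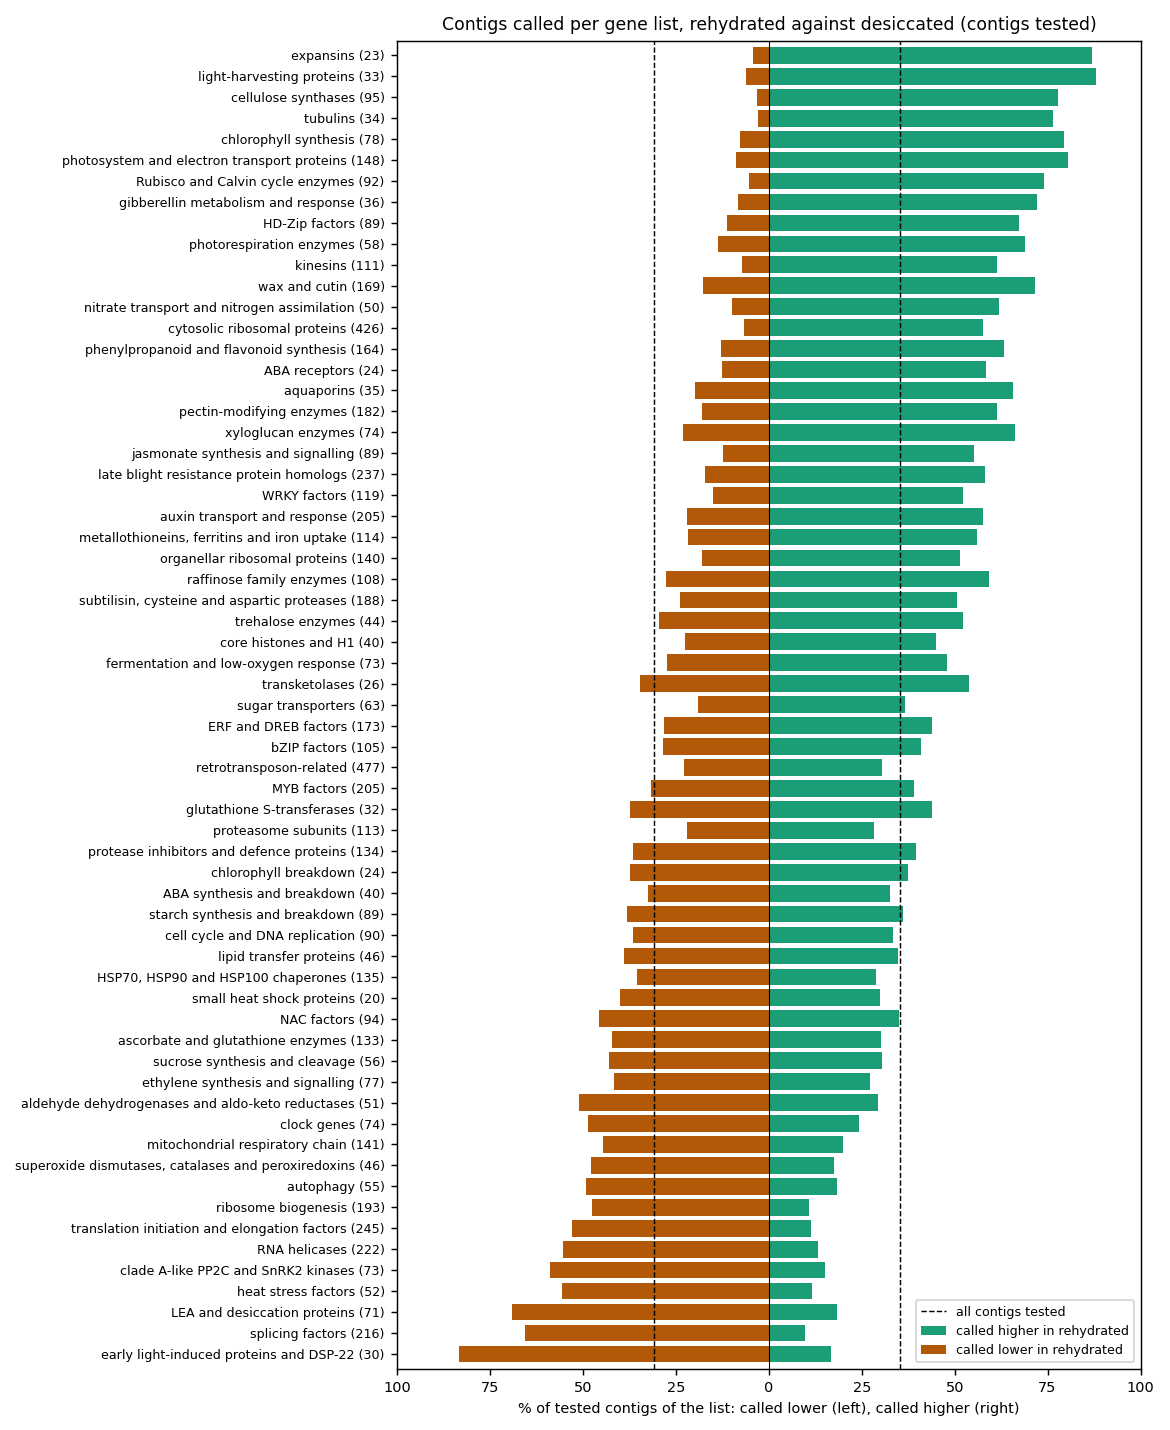
Percentage of tested contigs in each gene list that were higher (right of 0) or lower (left of 0) in rehydrated than in desiccated leaves at an adjusted p below 0.05, for lists with at least 20 tested contigs (number in brackets), with dashed lines at the shares over all 44336 tested contigs. Light-harvesting proteins and expansins reach furthest on the higher side, with 87.9 and 87% of contigs, and early light-induced proteins on the lower side, with 83.3%.

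The contigs that differed most in the higher direction had almost no reads in desiccated leaves. For a contig with no read in a group, the fold is a lower bound set against 3 reads per library. Among described contigs in the upper 50% by level, the highest fitted fold, which for a group without reads depends on the fit, was that of a multicopper oxidase LPR1-like contig (Cp_V2_contig_18364), at 37.8, 48 and 29.4 RPKM in rehydrated libraries and without a read in desiccated ones, at least 416-fold higher. LPR1 of Arabidopsis is a cell wall oxidase of the response to low phosphate. A transporter of the NRT1/PTR family (Cp_V2_contig_13746), a family that moves nitrate and peptides, was at least 401-fold higher. The arabinogalactan protein 18-like contig Cp_V2_contig_10404, a glycoprotein of the cell surface, was at least 398-fold higher. At all 3 of these contigs the rehydrated libraries were close together and the desiccated ones empty. The ABA receptor PYL4-like contig Cp_V2_contig_6998 had 29.4, 32.6 and 128 RPKM in rehydrated leaves and no read in desiccated leaves, at least 287-fold higher. Its fitted log2 fold was 12.55 with replicate 3, which held most of its reads, and 11.45 without it. Among the others, DRT100-like Cp_V2_contig_12870 was at least 279-fold higher, the wall-loosening expansin A10 Cp_V2_contig_9900 at least 210-fold, the dioxygenase AOP1 Cp_V2_contig_1295 at least 174-fold, and the calcium-binding EF-hand contig Cp_V2_contig_1452 at least 144-fold. The protein E6-like contig Cp_V2_contig_5474, of a family first described in cotton fibres, had 8696 reads in rehydrated leaves and 2 in desiccated leaves, which gives a ratio of 4720 with a 95% counting interval of 1306 to 38984. Its fitted log2 fold was 11.58, and 14.35 without the desiccated replicate that held both reads. The only abundant contig of this group was a haloacid dehalogenase-like hydrolase (Cp_V2_contig_711). Its rehydrated libraries had 3800, 3946 and 2475 RPKM and its desiccated libraries 1.16, 0.525 and 0.671 RPKM, a log2 fold of 11.68 (SE 0.33). Fresh leaves were at 2201 ± 1454 RPKM (SD, n = 3).

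The contigs that differed most in the lower direction kept a low level of reads in rehydrated leaves. LURP-one-related 10-like Cp_V2_contig_30029 was at 1.97, 3.38 and 8.7 RPKM in rehydrated and at 584, 572 and 540 RPKM in desiccated leaves, a log2 fold of -7.30 (SE 0.57). Replicate 3 was the highest of the rehydrated libraries, and without it the log2 fold was -8.15. A xyloglucan endotransglycosylase/hydrolase (Cp_V2_contig_47839), an enzyme that rejoins wall polymers, had a log2 fold of -6.99 (SE 0.44). The heavy metal-associated protein 26-like contig Cp_V2_contig_47824 was at 2.22, 2.13 and 1.99 RPKM in rehydrated and 191, 181 and 200 RPKM in desiccated leaves. Both groups were tight here and lay far apart, with a log2 fold of -6.89 (SE 0.17). The log2 fold was -6.82 (SE 0.23) for the Lea14 homolog Cp_V2_contig_44233 and -6.80 (SE 0.40) for an F-box/kelch-repeat contig (Cp_V2_contig_45608), of a family that selects proteins for ubiquitin ligases. It was -6.49 (SE 0.23) for a ferredoxin of the root type (Cp_V2_contig_12595), an electron carrier, and -6.45 (SE 0.32) for a beta-amylase 1-like contig (Cp_V2_contig_28848), an enzyme of starch breakdown. Both receptor contigs of the group also fell, receptor-like protein 2 (Cp_V2_contig_33764) with a log2 fold of -6.35 (SE 0.17) and the wall-associated receptor kinase 2-like contig Cp_V2_contig_47837, of a family that binds pectin, with one of -6.14 (SE 0.24). Metallothionein-like protein 4B (Cp_V2_contig_35196), whose Arabidopsis relatives bind zinc in seeds, was at 13.3, 17.3 and 12.5 RPKM in rehydrated and 910, 820 and 783 RPKM in desiccated leaves. Its log2 fold was -6.26 (SE 0.18), and every rehydrated library was far below every desiccated one. For these 20, the share of contigs called in either direction and the lack of overlap between the groups are fixed by the way they were picked.

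**Figure D2:**
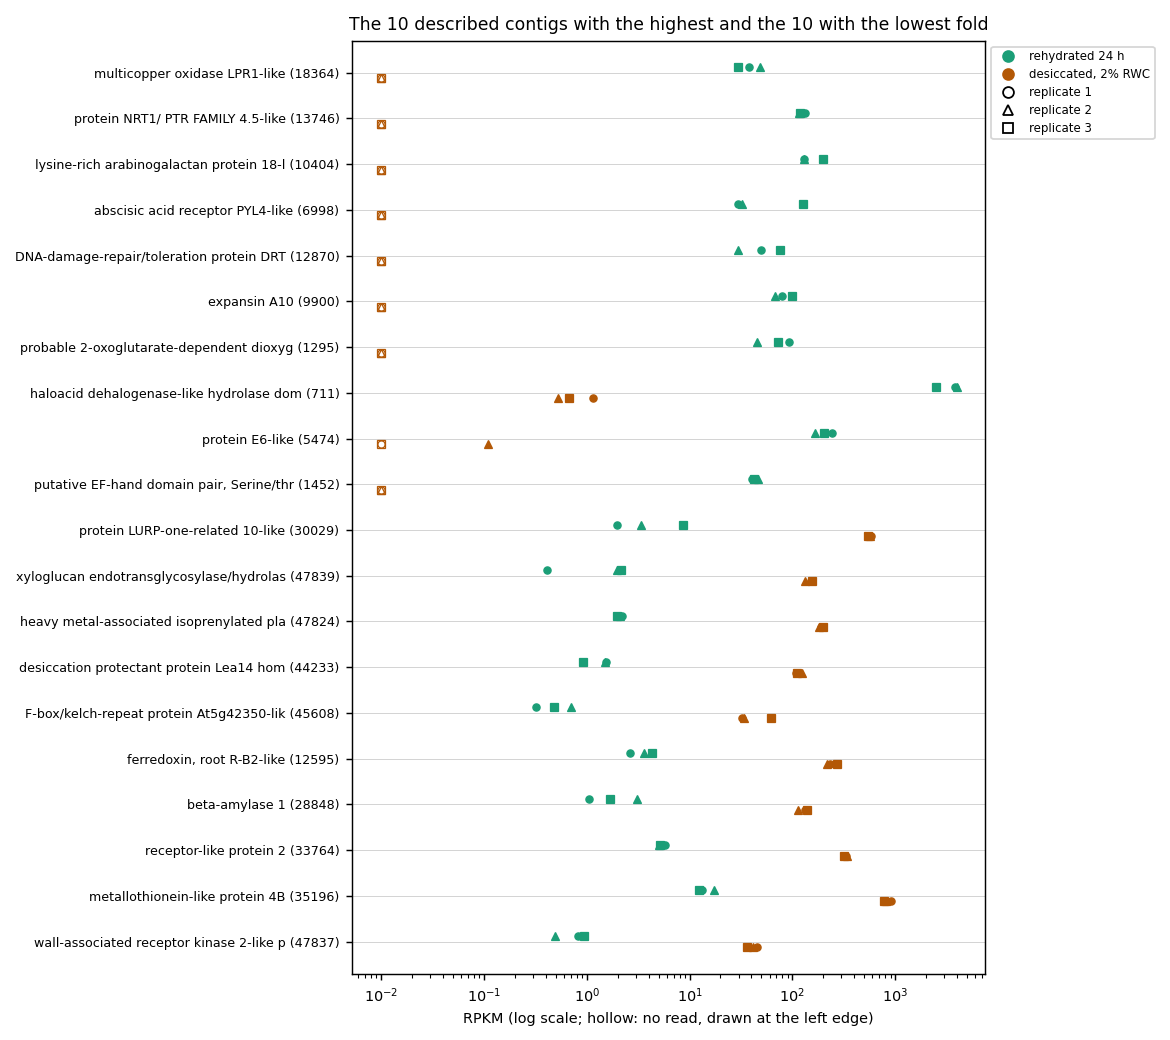
Levels (RPKM, log axis) in each rehydrated and desiccated library of the 10 contigs with the highest and the 10 with the lowest log2 folds, with the number of the contig beside its description and hollow marks for libraries without a read. The rehydrated and desiccated points do not overlap at any of these contigs, which was a condition of the pick. The contigs that rose have desiccated libraries at or near 0.

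Of the 5 contigs at the highest level in desiccated leaves 3 were desiccation proteins, and all 3 fell with rehydration. They were picked by their level in desiccated leaves, which favours a fall. The most abundant of all was Cp_V2_contig_4317, annotated as a desiccation-related protein of this species. It was at 1669, 1583 and 1478 RPKM in rehydrated leaves and at 38209, 40408 and 42264 RPKM in desiccated leaves, with no overlap. Its log2 fold was -5.08 (SE 0.16), with a Benjamini-Hochberg adjusted p of 1.18e-08 by edgeR. Partly dried leaves had 63273 ± 8168 RPKM and fresh leaves 629 ± 505 RPKM (SD, n = 3 each). The Lea14 homolog Cp_V2_contig_22977 was at 211, 238 and 298 RPKM in rehydrated and 11180, 10983 and 8141 RPKM in desiccated leaves, a log2 fold of -5.74 (SE 0.22). The PCC13-62-like contig Cp_V2_contig_36163, of a family first cloned from this species, was at 134, 173 and 159 RPKM in rehydrated and 6770, 6896 and 4839 RPKM in desiccated leaves. In all 3 contigs the lowest desiccated library was at least an order of magnitude above the highest rehydrated library. The other contigs at the highest levels that name Craterostigma also fell. Their log2 folds were -4.69 (SE 0.19) for dehydrin 1 (Cp_V2_contig_15111), -4.06 (SE 0.18) for dehydrin DHN3 (Cp_V2_contig_22485) and -5.05 (SE 0.19) for a further desiccation-related protein (Cp_V2_contig_2915).

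Over the whole list of LEA and related desiccation proteins, 13 of 71 rose and 49 fell, with a median log2 fold of -1.85, beside 35.3% higher and 30.9% lower and a median of 0.08 over all contigs. The list took 0.411, 0.376 and 0.351% of reads in rehydrated leaves and 4.03, 4.23 and 3.79% in desiccated leaves. With 3 libraries a group, an exact permutation test of such a share cannot go below p = 0.10, so shares are given as values. All 20 members at 500 RPKM or more in desiccated leaves fell, and of the 51 below that level 13 rose and 29 fell. The cut is on the desiccated level, itself part of the comparison, which favours a fall among the members above it. The members that rose included the LEA At1g64065-like contig Cp_V2_contig_19809, with 9.46, 11.6 and 38.6 RPKM in rehydrated leaves and no read in desiccated leaves. It was at least 82.5-fold higher, with a fitted log2 fold of 10.75 and of 9.76 without replicate 3. A dehydrin contig (Cp_V2_contig_802) also went against its list, at 1366, 1032 and 1364 RPKM in rehydrated and 69.1, 55 and 54.8 RPKM in desiccated leaves. The log2 fold of this contig was 4.00 (SE 0.18), and partly dried and fresh leaves had 2952 ± 334 and 2381 ± 657 RPKM. This dehydrin was therefore abundant in every state but the desiccated one.

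Most early light-induced proteins fell, 25 of 30 tested contigs against 5 that rose, and the list took 0.102, 0.0909 and 0.0756% of reads in rehydrated and 1.9, 2.14 and 1.16% in desiccated leaves. All 13 contigs of DSP-22, a desiccation stress protein of Craterostigma, fell, with log2 folds of -5.72 to -4.33. The most abundant, Cp_V2_contig_36065, was at 161, 162 and 134 RPKM in rehydrated and 5662, 6392 and 3458 RPKM in desiccated leaves (log2 fold -5.48, SE 0.25), with 21.1% of its reads shared with other contigs. The steepest was Cp_V2_contig_47825, with a log2 fold of -5.72 (SE 0.25). Of the other 17 contigs 12 fell and 5 rose. The highest fold of the list was that of the early light-induced protein 1 contig Cp_V2_contig_12578, at 16.5, 16.6 and 16.9 RPKM in rehydrated and 0.445, 0.634 and 0 RPKM in desiccated leaves. It rose by a log2 fold of 4.95 (SE 0.45), or 5.63 without desiccated replicate 2. Coat proteins of lipid droplets followed the DSP-22 contigs, with 1 of 15 tested contigs higher and 11 lower. The oleosin 1-like contig Cp_V2_contig_20784 was at 68.7, 84.3 and 77 RPKM in rehydrated and 1294, 1165 and 1176 RPKM in desiccated leaves, a log2 fold of -4.38 (SE 0.15).

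Most called ABA receptor contigs rose, those of PYL4 above all, while most called contigs of ABA signal transduction fell. Of 24 tested ABA receptor contigs 14 rose and 3 fell (5 fell without replicate 3), with a median log2 fold of 1.58. Over all contigs tested, 35.3% were higher and 30.9% lower. All 9 contigs described as the receptor PYL4 rose, by 3.48 to 12.55 on the log2 scale. The other receptors were mixed. PYL8 had 2 of 6 contigs higher and 0 lower, PYL2 1 of 4 and 0, PYL9 1 of 3 and 2, and PYR1 1 of 2 and 1. The PYL4-like contig Cp_V2_contig_12318 was at 132, 141 and 194 RPKM in rehydrated and 7.69, 6.06 and 5.99 RPKM in desiccated leaves (log2 fold 4.17, SE 0.21). The receptor contig at the highest level, PYL8-like Cp_V2_contig_12664, was at 138, 134 and 171 RPKM in rehydrated and 149, 121 and 141 RPKM in desiccated leaves. Those groups overlapped, and it was not called, although without rehydrated replicate 3 it was called lower (log2 fold -0.43, SE 0.13). PYL9-like Cp_V2_contig_5297 fell by 1.57 on the log2 scale (SE 0.16). Of the phosphatases and kinases that act after the receptors, 11 of 73 tested contigs rose and 43 fell, with a median of -1.23. Of the 19 contigs of protein phosphatase 2C 16, 18 fell and 0 rose, and of the 7 SnRK2 contigs 6 fell. Phosphatase 2C 51 (Cp_V2_contig_39930) was at 7.93, 10.8 and 17.3 RPKM in rehydrated and 642, 585 and 636 RPKM in desiccated leaves, a log2 fold of -6.08 (SE 0.31). The SnRK2 that rose, SAPK2 (Cp_V2_contig_14880), was at 82.7, 57 and 74 RPKM in rehydrated and 5.02, 4.49 and 2.69 RPKM in desiccated leaves (log2 fold 3.73, SE 0.24). Contigs of ABA synthesis and breakdown had 13 of 40 higher and 13 lower, or 18 and 12 with scaling by library totals alone. The ABA 8'-hydroxylase 1, which inactivates the hormone, had contigs on both sides. Cp_V2_contig_44062 had 152 reads in rehydrated leaves and none in desiccated ones, at least 18-fold higher, and Cp_V2_contig_47292 fell by 5.23 on the log2 scale (SE 0.26).

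Photosynthesis contigs were higher in rehydrated leaves throughout the light reactions, with the chloroplast-encoded ones as an exception. Of 33 tested light-harvesting contigs 29 rose and 2 fell (median log2 fold 2.27), and of 148 contigs of photosystem and electron transport proteins 119 rose and 13 fell (median 1.41). The antenna protein CP26 (Cp_V2_contig_164) was at 2295, 2168 and 1153 RPKM in rehydrated and 215, 197 and 126 RPKM in desiccated leaves, a log2 fold of 2.99 (SE 0.29). Replicate 3 was the lowest rehydrated library here and was still well above every desiccated library. The highest fold of the list was that of chlorophyll a-b binding protein 21 (Cp_V2_contig_5361), at 6.34 (SE 0.32). A chlorophyll a-b binding protein (Cp_V2_contig_296) had 3353, 2937 and 2766 RPKM in rehydrated and 547, 488 and 392 RPKM in desiccated leaves. The electron carrier plastocyanin (Cp_V2_contig_709) rose by a log2 fold of 2.01 (SE 0.15) and the oxygen-evolving enhancer protein 1 (Cp_V2_contig_1113), a cover of the water-splitting site, by 1.74 (SE 0.15). Against the list, an LHCII type 1 contig (Cp_V2_contig_172) fell by 1.27 (SE 0.24). Its libraries did not overlap, at 1588, 1355 and 908 RPKM in rehydrated and 2862, 2582 and 1630 RPKM in desiccated leaves. Of the 11 contigs described as chloroplast-encoded proteins of the photosystems and electron transport 8 fell and 1 rose, with a median of -0.79. The 44 kDa antenna protein of photosystem II (Cp_V2_contig_418) fell by 2.19 (SE 0.18), with 277, 289 and 240 RPKM in rehydrated and 734, 1043 and 986 RPKM in desiccated leaves.

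Most contigs of carbon fixation, photorespiration and chlorophyll synthesis also rose. Of 92 Rubisco and Calvin cycle contigs 68 rose and 5 fell, of 58 photorespiration contigs 40 rose and 8 fell, and of 78 chlorophyll synthesis contigs 62 rose and 6 fell. Their median log2 folds were 1.64, 1.81 and 1.56. The Rubisco small chain (Cp_V2_contig_63), part of the enzyme that fixes carbon dioxide, was at 9919, 7271 and 7632 RPKM in rehydrated and 986, 864 and 830 RPKM in desiccated leaves. Its log2 fold was 2.82 (SE 0.17), and fresh leaves were at 15675 ± 3553 RPKM. Rubisco activase (Cp_V2_contig_616), which keeps that enzyme active, rose by 2.64 (SE 0.17), glyceraldehyde-3-phosphate dehydrogenase A (Cp_V2_contig_435) by 3.80 (SE 0.18) and a cytosolic fructose-1,6-bisphosphatase (Cp_V2_contig_1506), which works in sucrose synthesis, by 6.05 (SE 0.25). The glycine cleavage system H protein (Cp_V2_contig_661) of photorespiration rose by 4.52 (SE 0.20). In chlorophyll synthesis, all 9 contigs of protochlorophyllide reductase, the light-dependent step, rose, by 1.37 to 4.24. Protochlorophyllide reductase Cp_V2_contig_3615 was at 2073, 1784 and 1482 RPKM in rehydrated and 81.3, 61.1 and 72.3 RPKM in desiccated leaves (log2 fold 4.24, SE 0.18). The fresh libraries were spread widely, at 307, 1628 and 195 RPKM. The cyclase of magnesium protoporphyrin (Cp_V2_contig_1988) rose by 2.18 (SE 0.13) and the magnesium chelatase subunit ChlH (Cp_V2_contig_13456) by 4.34 (SE 0.32). Contigs of chlorophyll breakdown had 9 of 24 higher and 9 lower (37.5% each), beside 35.3% higher and 30.9% lower over all contigs. The Calvin cycle list had 2 or 3 contigs lower, not 5, without any 1 desiccated library.

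**Figure D3:**
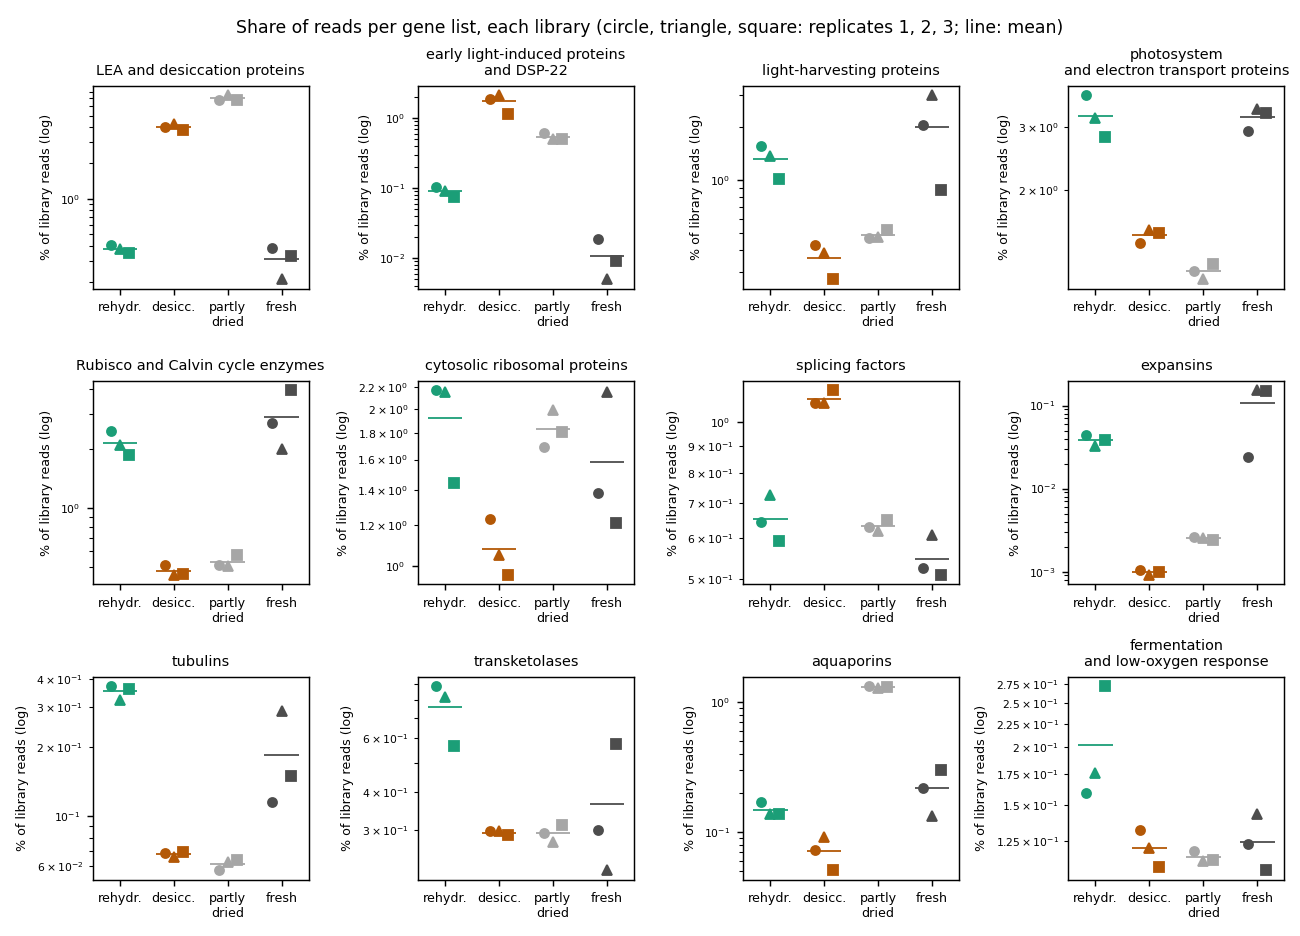
Percentage of a library's reads (log axis) that fell on gene lists in each rehydrated, desiccated, partly dried and fresh library. LEA and desiccation proteins took 0.351 to 0.411% in rehydrated and 3.79 to 4.23% in desiccated leaves, while expansins took 0.0328 to 0.0436% in rehydrated and 0.000912 to 0.00106% in desiccated leaves.

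Transketolases, which move 2-carbon units between sugar phosphates, held some of the steepest differences in the table. Of the 26 tested contigs 14 rose and 9 fell, with a median log2 fold of 1.02. The list took 0.889, 0.816 and 0.567% of reads in rehydrated and 0.298, 0.298 and 0.29% in desiccated leaves, against 0.222 to 0.576% in fresh leaves. A set of 6 contigs, picked after their values were seen, had at least 100 RPKM in rehydrated leaves and under 2 RPKM in desiccated leaves, with log2 folds of 10.03 to 11.30. The cut itself favours steep folds. Just under it, Cp_V2_contig_13373 had means of 88.3 and 0.786 RPKM (log2 fold 6.33, SE 0.30) and Cp_V2_contig_36809 of 76.1 and 1.54 RPKM (5.19, SE 0.30). The most abundant of the 6, Cp_V2_contig_1819, was at 3176, 3010 and 1486 RPKM in rehydrated and 1.89, 1.03 and 1.57 RPKM in desiccated leaves (log2 fold 10.35, SE 0.42). Partly dried leaves had 1.21 ± 0.596 RPKM and fresh leaves 204 ± 133 RPKM (SD, n = 3 each). All 3 rehydrated libraries lay above the 3 fresh ones, with replicate 3 the lowest. Transketolase-like Cp_V2_contig_15357 had the highest fold of the list, with 810, 741 and 322 RPKM in rehydrated and 0.105, 0.358 and 0 RPKM in desiccated leaves. Its log2 fold was 11.30 (SE 0.66), and 12.74 without desiccated replicate 2. Cp_V2_contig_951 was at 478, 369 and 299 RPKM in rehydrated and 0.453, 0.155 and 0.167 RPKM in desiccated leaves (log2 fold 10.11, or 10.75 without desiccated replicate 1), with fresh leaves at 353 ± 350 RPKM. The transketolase at the highest level over both states, Cp_V2_contig_1735, was at 971, 861 and 736 RPKM in rehydrated and 889, 871 and 808 RPKM in desiccated leaves. These groups overlapped in RPKM, and its log2 fold of -0.40 (SE 0.14) was called lower with TMM and was 0.00 when libraries were scaled by their totals alone. The call was also lost without rehydrated replicate 2 or desiccated replicate 1 or 2 (-0.37 to -0.40). The lowest fold of the list was that of Cp_V2_contig_30910, at 2.38, 1.87 and 1.18 RPKM in rehydrated and 15.8, 16.5 and 14.9 RPKM in desiccated leaves (-3.51, SE 0.29). Partly dried leaves were at 71.3 RPKM for that contig, so members of 1 family had their highest level in different states.

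**Figure D4:**
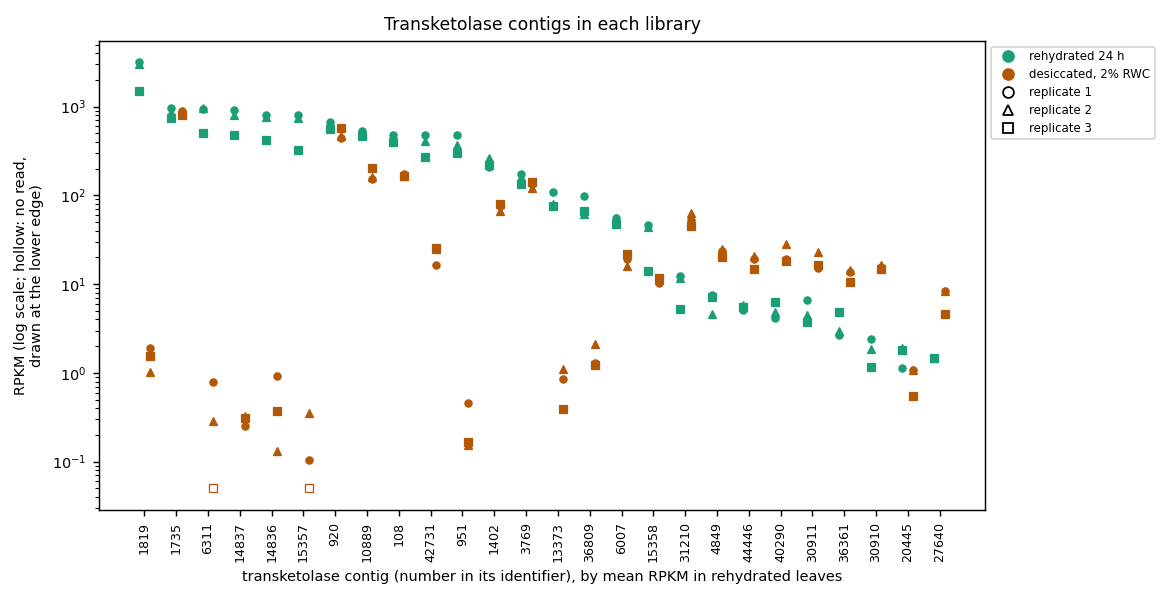
Levels (RPKM, log axis) of the 26 tested transketolase contigs in each rehydrated and desiccated library, ordered by mean level in rehydrated leaves. The 6 contigs picked by their levels are at 382 to 2558 RPKM (means) in rehydrated and 0.154 to 1.5 RPKM in desiccated leaves. Their wide gap between the states follows from the pick. Another contig has a mean of 856 RPKM in both states.

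Other sugar enzymes were mixed, beside 35.3% higher and 30.9% lower over all contigs tested. Of 56 contigs of sucrose synthesis and cleavage 17 rose and 24 fell, a median of -0.35 that became 0.04 with scaling by library totals alone. All 10 called contigs among the 13 of insoluble invertase, the wall enzyme that splits sucrose, fell, for example Cp_V2_contig_8611 with 46.3, 53 and 97.9 RPKM in rehydrated and 235, 252 and 285 RPKM in desiccated leaves (log2 fold -2.36, SE 0.29). The vacuolar invertase Cp_V2_contig_23031 had 15, 8.15 and 11.4 RPKM in rehydrated and 0, 0.459 and 0.33 RPKM in desiccated leaves, a log2 fold of 4.95 (SE 0.56) and of 5.75 without desiccated replicate 2. The insoluble enzyme was lower in every rehydrated library than in every desiccated one at Cp_V2_contig_8611, and the vacuolar one higher, at a low level. Of 108 contigs of the raffinose family, the galactose-bearing sugars of seeds and stressed leaves, 64 rose and 30 fell. By reads this list was lower, at 0.565, 0.468 and 0.566% in rehydrated and 0.626, 0.602 and 0.639% in desiccated leaves. Galactinol synthase, the first step, had 5 of 14 contigs higher and 8 lower. Galactinol synthase 1 (Cp_V2_contig_423) was at 877, 811 and 1127 RPKM in rehydrated and 1348, 1271 and 2046 RPKM in desiccated leaves (log2 fold -1.13, SE 0.22), and galactinol synthase 2 (Cp_V2_contig_17260) fell by 5.35 (SE 0.52). Galactosyltransferases had 48 of 70 contigs higher, among them Cp_V2_contig_6133, which had no read in desiccated leaves and was at least 81.8-fold higher. Another of them, Cp_V2_contig_40378, was at 88.3, 111 and 62.4 RPKM in rehydrated and 566, 524 and 485 RPKM in desiccated leaves (log2 fold -2.99, SE 0.19). Starch contigs had 32 of 89 higher and 34 lower (median -0.12), or 40 and 22 (median 0.28) with scaling by library totals alone. Beta-amylase 1 (Cp_V2_contig_5071) fell by 2.31 (SE 0.15), and the large subunit 3 of ADP-glucose pyrophosphorylase (Cp_V2_contig_1078), the entry step of starch synthesis, rose by 4.52 (SE 0.23). Trehalose enzymes had 23 of 44 contigs higher and 13 lower, and sugar transporters 23 of 63 and 12.

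Contigs of wall loosening and cell growth were higher in rehydrated leaves. Expansins, which let walls stretch, had 20 of 23 tested contigs higher and 1 lower, with a median log2 fold of 6.54, or 6.17 with contigs absent from desiccated leaves set at their bound. They took 0.0436, 0.0328 and 0.0381% of reads in rehydrated and 0.00106, 0.000912 and 0.000994% in desiccated leaves. Expansin A10 Cp_V2_contig_11883 was at 134, 107 and 142 RPKM in rehydrated leaves and had 1 read in all desiccated libraries, a ratio of 3186 with a counting interval of 571 to 125897. Its fitted log2 fold was 10.82, and 12.82 without the desiccated replicate that held the read. A second expansin A10, Cp_V2_contig_23232, had 2203 reads in rehydrated leaves against 3 in desiccated leaves, a ratio of 797 (272 to 3869). The expansin-like B1 contig Cp_V2_contig_18313 went the other way, with 0.788, 0 and 0.521 RPKM in rehydrated and 1.36, 2.01 and 1.67 RPKM in desiccated leaves. Its log2 fold was -2.27 (SE 0.67) and was -2.95 without rehydrated replicate 1 and -2.09, no longer called, without desiccated replicate 2, at levels near the limit of detection. Cellulose synthases had 74 of 95 contigs higher and 3 lower, pectin-modifying enzymes 112 of 182 and 33, and xyloglucan enzymes 49 of 74 and 17. The highest folds in these lists were those of the cellulose synthase interactive protein 3 (Cp_V2_contig_37007, at least 34.5-fold) and pectate lyase 8 (Cp_V2_contig_31040, 3829 reads against 3, a ratio of 1386 with an interval of 474 to 6722). A pectate lyase at a higher level (Cp_V2_contig_10950) was at 235, 192 and 129 RPKM in rehydrated and 4.84, 4.46 and 3.18 RPKM in desiccated leaves (log2 fold 5.07, SE 0.26).

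Most tubulins of the cytoskeleton rose. Of 34 tested tubulin contigs 26 rose and 1 fell, with a median log2 fold of 3.59, and they took 0.372, 0.322 and 0.362% of reads in rehydrated and 0.0684, 0.066 and 0.0694% in desiccated leaves. An alpha-tubulin (Cp_V2_contig_5939) was at 439, 356 and 341 RPKM in rehydrated and 4.98, 4.25 and 3.62 RPKM in desiccated leaves (log2 fold 6.06, SE 0.19), while tubulin alpha-3 (Cp_V2_contig_4527) rose by 0.72 (SE 0.14). Kinesins, motors that run on tubulin, had 68 of 111 contigs higher and 8 lower. The kinesin with the highest fold, KIN-5D (Cp_V2_contig_40732), shared 79% of its reads with other contigs, and its log2 fold of 7.70 was 6.55 with uniquely matched reads, 7.10 without desiccated replicate 1 and 8.41 without desiccated replicate 3. Contigs of cell division had 30 of 90 higher and 33 lower (33.3 and 36.7%), beside 35.3 and 30.9% over all contigs. Scaling by library totals alone gave 34 and 21 and turned the median from -0.31 to 0.09. The replication factor MCM3 (Cp_V2_contig_35934) was lower, at 8.09, 11.2 and 14 RPKM in rehydrated and 135, 155 and 133 RPKM in desiccated leaves (log2 fold -4.07, SE 0.22).

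Aquaporins, the water channels, had 23 of 35 tested contigs higher and 7 lower. The lower count was 4 without rehydrated replicate 2 or desiccated replicate 1, 3 without desiccated replicate 2 and 2 with scaling by library totals alone. The plasma membrane type (PIP) had 11 of 12 higher. The PIP pTOM75 (Cp_V2_contig_580) was at 279, 229 and 246 RPKM in rehydrated and 9.26, 7.57 and 7.86 RPKM in desiccated leaves (log2 fold 4.54, SE 0.17), and PIP 1C (Cp_V2_contig_486) rose by 2.51 (SE 0.15). Fresh leaves were close to rehydrated ones for both, at 307 ± 183 and 402 RPKM. The vacuolar type had 6 of 9 contigs higher and 2 lower. Gamma-tonoplast intrinsic protein 3 (Cp_V2_contig_1109) was at 360, 313 and 178 RPKM in rehydrated and 476, 677 and 276 RPKM in desiccated leaves. The groups overlapped, and its log2 fold of -1.15 (SE 0.37) lay near the threshold, with a Benjamini-Hochberg adjusted p of 0.0268 by edgeR. The call was lost without rehydrated replicate 2 or 3 or desiccated replicate 1 or 2 (log2 fold -0.79 to -1.21). The level of this contig in partly dried leaves was 12434 RPKM, well above the 497 RPKM of fresh leaves. TIP2-1-like Cp_V2_contig_20265 had no read in desiccated leaves and was at least 33.2-fold higher, with a fitted log2 fold of 9.44 and of 8.38 without replicate 3.

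Contigs of the ribosome and those of RNA handling differed in opposite directions. Cytosolic ribosomal proteins had 246 of 426 tested contigs higher and 29 lower (median log2 fold 0.66), and those of plastids and mitochondria 72 of 140 higher and 25 lower (median 0.51). The cytosolic ones took 2.17, 2.16 and 1.44% of reads in rehydrated and 1.23, 1.05 and 0.962% in desiccated leaves. Splicing factors had 21 of 216 contigs higher and 142 lower (median -0.78), RNA helicases 29 of 222 and 123 (median -0.65), translation factors 28 of 245 and 130 (median -0.59) and ribosome biogenesis factors 21 of 193 and 92 (median -0.48). These medians were small. With scaling by library totals alone they were -0.37, -0.25, -0.19 and -0.08. The counts were then 35, 49, 57 and 43 contigs higher and 95, 86, 88 and 54 lower. Without rehydrated replicate 3, 33 ribosome biogenesis contigs were higher. Splicing factors took 0.645, 0.724 and 0.593% of reads in rehydrated and 1.09, 1.09 and 1.15% in desiccated leaves, without overlap. The read shares of RNA helicases and translation factors were also lower without overlap. Those of ribosome biogenesis overlapped, at 0.481, 0.586 and 0.369% in rehydrated and 0.571, 0.538 and 0.554% in desiccated leaves. Splicing factor 3B subunit 1 (Cp_V2_contig_2348), which helps find the branch point, was at 52.7, 65.3 and 56.1 RPKM in rehydrated and 255, 277 and 301 RPKM in desiccated leaves (log2 fold -2.66, SE 0.15). The log2 fold was -5.26 (SE 0.37) for U2 snRNP A' (Cp_V2_contig_25861), -4.45 (SE 0.26) for a DDX56 helicase (Cp_V2_contig_47823), -3.05 (SE 0.15) for initiation factor 2D (Cp_V2_contig_30622) and -2.01 (SE 0.16) for an rRNA-processing fcf2-like contig (Cp_V2_contig_1979). Not all members followed, since the nucleolar gar2-like contig Cp_V2_contig_33231 was at 38, 43.9 and 65 RPKM in rehydrated and 0.237, 0.405 and 0.437 RPKM in desiccated leaves (log2 fold 6.65, SE 0.36). The translation factor at the highest level, the chloroplast elongation factor Tu (Cp_V2_contig_736), was not called, at 3162, 3099 and 2637 RPKM in rehydrated and 1988, 1874 and 1945 RPKM in desiccated leaves (log2 fold 0.21, SE 0.13). It was called higher with scaling by library totals alone.

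Contigs of the response to low oxygen, to which submerged leaves are exposed, were uneven across families and libraries. Of 73 tested contigs 35 rose and 20 fell (median log2 fold 0.43), and the list took 0.159, 0.176 and 0.272% of reads in rehydrated and 0.132, 0.121 and 0.11% in desiccated leaves, with replicate 3 the highest. The factor RAP2-12, which carries the plant oxygen-sensing signal, had 16 of 21 contigs higher and 0 lower. RAP2-12-like Cp_V2_contig_18810 was at 258, 215 and 250 RPKM in rehydrated and 29.9, 23 and 35.9 RPKM in desiccated leaves (log2 fold 2.63, SE 0.19). Plant cysteine oxidase 2 (Cp_V2_contig_26556), an enzyme that marks RAP2-12 for breakdown when oxygen is present, had 633 reads in rehydrated leaves and 1 in desiccated leaves, a ratio of 687 (123 to 27186). Its family had 4 of 9 contigs higher and 1 lower. Pyruvate decarboxylase, the first step of ethanol fermentation, had 1 of 9 contigs higher and 6 lower, and alcohol dehydrogenase, the last step, 9 of 18 higher and 5 lower. Alcohol dehydrogenase 1 (Cp_V2_contig_43000) fell by 5.57 on the log2 scale (SE 0.24), with 1.28, 2.77 and 2.09 RPKM in rehydrated and 73.4, 73.2 and 73.2 RPKM in desiccated leaves.

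At 4 further contigs of this list that rose, rehydrated replicate 3 was well above both its partners. Non-symbiotic hemoglobin 1 (Cp_V2_contig_22428), which scavenges nitric oxide in oxygen-poor tissue, was at 53, 82.9 and 563 RPKM in rehydrated and 2.67, 2.2 and 3.16 RPKM in desiccated leaves. Rehydrated over desiccated, the log2 fold was 6.08 (SE 1.30), and 4.25 (SE 0.23) without replicate 3. Pyruvate decarboxylase 2 (Cp_V2_contig_30519) was at 22.2, 85.1 and 211 RPKM in rehydrated and 1.86, 1.1 and 1.26 RPKM in desiccated leaves. Here all 3 rehydrated libraries differed from each other, and the log2 fold of 5.85 (SE 1.04) was 4.82 (SE 0.69) without replicate 3. An alcohol dehydrogenase (Cp_V2_contig_9048) was at 13.2, 36.6 and 212 RPKM in rehydrated and 0.289, 0.987 and 0.355 RPKM in desiccated leaves, with log2 folds of 6.83 with replicate 3, 4.96 without it, 7.68 without desiccated replicate 2 and 6.51, no longer called, without desiccated replicate 1. Alcohol dehydrogenase 1B (Cp_V2_contig_3737), at 82.3, 92 and 232 RPKM in rehydrated and 16.2, 11.4 and 10.6 RPKM in desiccated leaves, gave 3.03 and, without replicate 3, 2.36. At each of these 4 contigs rehydrated replicates 1 and 2 were also above every desiccated library. In fresh leaves, hemoglobin was at 5.62 ± 6.38 RPKM and pyruvate decarboxylase 2 at 1.67 ± 0.297 RPKM.

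Several stress and defence lists had a larger share of contigs high in replicate 3 than the 3.12% of all tested contigs, as did some other lists, such as aquaporins with 3 of 35. Of 119 tested WRKY factors, regulators of defence, 30 were at least 2-fold above both other rehydrated libraries in replicate 3. The same held for 19 of 164 contigs of phenylpropanoid synthesis, 15 of 89 of jasmonate synthesis and signalling, 13 of 173 ERF and DREB factors, 10 of 73 low-oxygen contigs and 6 of 24 ABA receptors. It held for 0 of 216 splicing factors, 0 of 34 tubulins and 0 of 33 light-harvesting contigs. Among single contigs, the 9S-lipoxygenase 5 contig Cp_V2_contig_41391 was at 0.793, 0.907 and 26.9 RPKM in rehydrated leaves and had 1 read in desiccated leaves, a ratio of 983 (176 to 38849). Its fitted log2 fold was 9.11 (SE 3.01), 5.57 without rehydrated replicate 3 and 8.57 to 11.12, no longer called, without any 1 desiccated library. The cationic peroxidase 1-like contig Cp_V2_contig_13540 was at 12.2, 11.5 and 277 RPKM in rehydrated and 0.245, 0.334 and 0.24 RPKM in desiccated leaves, a log2 fold of 8.10 with replicate 3 and 4.96 without it. A lignin-forming peroxidase (Cp_V2_contig_36444), at 25.4, 31.2 and 524 RPKM in rehydrated and 15, 13.1 and 4.88 RPKM in desiccated leaves, was not called with all libraries. Without replicate 3 it was called higher, at a log2 fold of 0.92. For the cationic peroxidase the call was lost without any 1 desiccated library (adjusted p of 0.0541 to 0.066 by edgeR). The lignin-forming peroxidase was also called without rehydrated replicate 1 (4.28) or 2 (4.26).

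**Figure D5:**
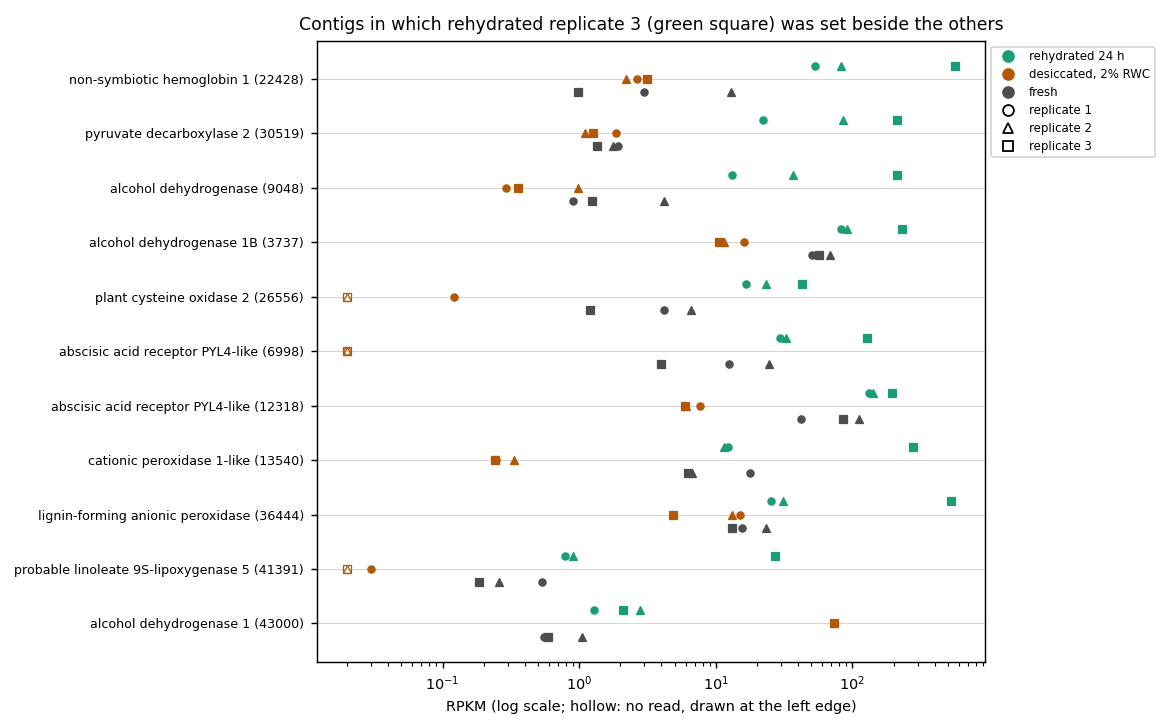
Levels (RPKM, log axis) of low-oxygen, ABA receptor and defence contigs in each rehydrated, desiccated and fresh library, with squares for replicate 3. Rehydrated replicate 3 is the highest library at each contig shown except alcohol dehydrogenase 1, for example at 563 RPKM beside 53 and 82.9 RPKM for non-symbiotic hemoglobin 1. The contigs were picked for the figure, most of them because their fold moved without replicate 3, which favours this. Over all tested contigs, 3.12% were at least 2-fold above both other rehydrated libraries in replicate 3.

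Hormone lists other than ABA lay mostly on the higher side. Jasmonate synthesis and signalling had 49 of 89 tested contigs higher and 11 lower, auxin 118 of 205 and 45, and gibberellin 26 of 36 and 3 (0 or 1 lower without any 1 library other than rehydrated replicate 3). All 3 contigs of lipoxygenase 6, a plastid enzyme at the start of jasmonate synthesis, rose. Lipoxygenase 6 Cp_V2_contig_125 was at 511, 490 and 503 RPKM in rehydrated and 14.2, 12.8 and 18 RPKM in desiccated leaves (log2 fold 4.67, SE 0.18), and Cp_V2_contig_651 rose by 3.98 (SE 0.16). These lipoxygenases had close values in all 3 rehydrated libraries, unlike the 9S-lipoxygenase above. In the gibberellin list, 10 of 12 contigs of DELLA proteins, which hold growth back until gibberellin removes them, rose, for example GAI1-like Cp_V2_contig_6797 by 4.18 (SE 0.20). Gibberellin 3-beta-dioxygenase 1 (Cp_V2_contig_40649), the last step to the active hormone, had no read in desiccated leaves and was at least 25.6-fold higher. The auxin-binding protein ABP19a-like contig Cp_V2_contig_39987 was at 89.9, 123 and 22 RPKM in rehydrated leaves, with replicate 3 the lowest, and had 1 read in desiccated leaves, a ratio of 1482 (266 to 58574). Its fitted log2 fold was 9.72, and 11.78 without desiccated replicate 3. Ethylene contigs had 21 of 77 higher and 32 lower (median -0.38), but 27 and 21 (median 0.02) with scaling by library totals alone. The ethylene receptor 2 contig Cp_V2_contig_34534 had 20, 20.5 and 18.4 RPKM in rehydrated leaves and no read in desiccated leaves, at least 76.6-fold higher, and ACC oxidase (Cp_V2_contig_601), which makes the hormone, rose by 1.17 (SE 0.14).

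Transcription factor families divided, beside 35.3% higher and 30.9% lower over all contigs tested. HD-Zip factors had 60 of 89 tested contigs higher and 10 lower (median log2 fold 1.54), and all 10 contigs of ATHB-5, ATHB-6 and ATHB-16 rose, by 2.30 to 8.98. ATHB-6-like Cp_V2_contig_22823 was at 75.1, 87.3 and 72.9 RPKM in rehydrated and 0.789, 0.311 and 0.671 RPKM in desiccated leaves (log2 fold 6.68, SE 0.26). ATHB-6 is a target of ABA signalling in Arabidopsis. Another ATHB-6 contig, Cp_V2_contig_40915, had no read in desiccated leaves and was at least 24.5-fold higher. The HD-Zip contig at the highest level, HAT5 Cp_V2_contig_3837, fell by 2.37 (SE 0.17), although 12 of the 16 HAT5 contigs rose. WRKY factors had 62 of 119 contigs higher and 18 lower, and 59 and 32 without replicate 3. WRKY 65 (Cp_V2_contig_3592) was at 51.7, 64.1 and 67.8 RPKM in rehydrated and 0.524, 0.248 and 0.429 RPKM in desiccated leaves (log2 fold 6.87, SE 0.26). ERF and DREB factors had 76 of 173 contigs higher and 49 lower, yet the member at the highest level, RAP2-1 (Cp_V2_contig_26531), fell by 5.66 (SE 0.20). It was at 9.93, 15.1 and 14.2 RPKM in rehydrated and 547, 474 and 480 RPKM in desiccated leaves. DREB2A-like Cp_V2_contig_20822, of a factor that switches on drought genes in Arabidopsis, fell by 5.75 (SE 0.25). Heat stress factors had 6 of 52 contigs higher and 29 lower (median -0.97), and NAC factors 33 of 94 and 43 (40 and 37 with scaling by library totals alone), with NAC 73-like Cp_V2_contig_26842 falling by 4.65 (SE 0.30). MYB factors had 80 of 205 higher and 65 lower (39 and 31.7%) and bZIP factors 43 of 105 and 30 (41 and 28.6%). Both families lay near the shares over all contigs.

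Clock contigs split by family. Of 74 tested contigs 18 rose and 36 fell (median log2 fold -0.73). REVEILLE factors had 4 of 29 higher and 13 lower, and the pseudo-response regulators 5 of 19 and 12, while all 5 contigs of the morning factors LHY and CCA1 rose and the 2 of GIGANTEA were not called. REVEILLE 5 (Cp_V2_contig_18088) was at 25.8, 36.3 and 47.2 RPKM in rehydrated and 610, 585 and 736 RPKM in desiccated leaves (log2 fold -4.54, SE 0.24), and REVEILLE 6 (Cp_V2_contig_44399) fell by 5.56 (SE 0.28). LHY-like Cp_V2_contig_218 was at 176, 106 and 158 RPKM in rehydrated and 46.3, 45.4 and 46.7 RPKM in desiccated leaves (log2 fold 1.27, SE 0.19). Since the hour of collection is not given, the part of the time of day in these values was not tested.

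Surface lipids, nitrogen and metal handling added further lists with more contigs higher than lower. Wax and cutin had 121 of 169 tested contigs higher and 30 lower (median log2 fold 2.52), although the member at the highest level, 3-ketoacyl-CoA synthase 11 (Cp_V2_contig_123), fell by 3.67 (SE 0.16). ECERIFERUM 1 (Cp_V2_contig_17374), needed for wax alkanes in Arabidopsis, was at 31.8, 28.3 and 22.5 RPKM in rehydrated leaves without a read in desiccated ones, at least 87.3-fold higher. Epidermis and cuticle markers had 52 of 73 higher and 13 lower, sharing wax and cutin contigs with that list. Guard cell and stomatal markers had 3 of 6 higher and 0 lower, among them the epidermal patterning factor-like 9 (Cp_V2_contig_2115), which promotes stomata, at 48.5, 43 and 31.9 RPKM in rehydrated and 2.65, 2.41 and 3.47 RPKM in desiccated leaves. Nitrate transport and nitrogen assimilation had 31 of 50 contigs higher and 5 lower (3 lower without desiccated replicate 2). Glutamine synthetase (Cp_V2_contig_835), which binds ammonium, was at 600, 577 and 464 RPKM in rehydrated and 3.67, 3.68 and 4.07 RPKM in desiccated leaves, a log2 fold of 6.77 (SE 0.19). Metallothioneins, ferritins and iron uptake had 64 of 114 higher and 25 lower, but their most abundant member, metallothionein-like protein 2 (Cp_V2_contig_256), fell by 2.49 (SE 0.14), with 1910, 2078 and 2096 RPKM in rehydrated and 9174, 7794 and 8946 RPKM in desiccated leaves. The count of contigs and the level of the most abundant member therefore pointed in different directions in both the wax and the metal lists. By reads the metal list was lower, at 0.508, 0.488 and 0.518% in rehydrated and 0.732, 0.656 and 0.708% in desiccated leaves. The wax and cutin list was higher by reads, at 0.249, 0.235 and 0.229% in rehydrated and 0.121, 0.122 and 0.111% in desiccated leaves.

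Most antioxidant, chaperone and respiration lists had more contigs lower than higher, beside 35.3% higher and 30.9% lower over all contigs. With scaling by library totals alone this balance turned for ascorbate and glutathione enzymes (51 higher, 43 lower), the HSP70, HSP90 and HSP100 chaperones (51 and 36), the small heat shock proteins (7 and 4) and the respiratory chain (39 and 33). Superoxide dismutases, catalases and peroxiredoxins had 8 of 46 tested contigs higher and 22 lower, and ascorbate and glutathione enzymes 40 of 133 and 56. The read shares of both lists overlapped between the states. Glutathione S-transferases went the other way, with 14 of 32 tested contigs higher and 12 lower. Catalase isozyme 3 (Cp_V2_contig_1190), which breaks down hydrogen peroxide, fell by 0.97 (SE 0.15). The cytosolic ascorbate peroxidase 1 (Cp_V2_contig_6114) was not called, with a log2 fold of 0.22 (SE 0.13). The HSP70, HSP90 and HSP100 chaperones had 39 of 135 higher and 48 lower (28.9 and 35.6%). The small heat shock proteins had 6 of 20 and 8 (30 and 40%). Both lay near the shares over all contigs, and the read shares of both lists overlapped between the states. The most abundant HSP70 contig, Cp_V2_contig_458, was at 1193, 1364 and 985 RPKM in rehydrated and 1681, 1756 and 1782 RPKM in desiccated leaves (log2 fold -0.96, SE 0.15). The mitochondrial respiratory chain had 28 of 141 contigs higher and 63 lower, with a median of -0.39 that became 0.01 with scaling by library totals alone, and autophagy 10 of 55 and 27. Proteases had 95 of 188 contigs higher and 45 lower, but took 0.722, 0.75 and 0.628% of reads in rehydrated and 1.25, 1.26 and 1.28% in desiccated leaves. Subtilisin-like protease 1.9 (Cp_V2_contig_39575) had no read in desiccated leaves and was at least 144-fold higher, while the abundant cysteine proteinase 15A-like contig (Cp_V2_contig_3204) fell by 2.15 (SE 0.16). Aldehyde dehydrogenases and aldo-keto reductases, which clear reactive aldehydes, had 15 of 51 higher and 26 lower. Aldose reductase-like Cp_V2_contig_24959 was at 36.8, 37.4 and 22.7 RPKM in rehydrated and 426, 380 and 420 RPKM in desiccated leaves (log2 fold -4.07, SE 0.20), and aldose reductase Cp_V2_contig_38375 fell by 3.30 (SE 0.40).

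Several of the most abundant contigs overlapped between the states. The contig at the highest level in rehydrated leaves, a putative transmembrane protein (Cp_V2_contig_17307), was at 13432, 13187 and 17957 RPKM in rehydrated and 6927, 9934 and 17397 RPKM in desiccated leaves. The groups overlapped, and it was not called, with a log2 fold of -0.03 (SE 0.34), and of 0.44 without desiccated replicate 3. A putative signal anchor contig (Cp_V2_contig_19, log2 fold 0.45, SE 0.22) and a hypothetical protein (Cp_V2_contig_7, -0.49, SE 0.25) were not called either. The signal anchor contig was called higher without desiccated replicate 3 (0.66), and the hypothetical protein lower without rehydrated replicate 3 (-0.72) or desiccated replicate 1 (-0.68). The ribosomal protein S12 of mitochondria (Cp_V2_contig_55) was at 3853, 3999 and 4070 RPKM in rehydrated and 3696, 4244 and 4256 RPKM in desiccated leaves, which overlapped, and its log2 fold of -0.44 (SE 0.14) was called lower. That call was lost without rehydrated replicate 2 or desiccated replicate 2 or 3 (-0.43, -0.39 and -0.38).

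Rehydrated leaves were also set beside fresh leaves. In the fit of all 12 libraries 1727 of 46494 contigs were higher and 2646 lower in rehydrated than in fresh leaves, 9.41% in all, and the fresh libraries varied more than the others, with a coefficient of variation of 0.524. Desiccation proteins differed in how far above fresh leaves they lay. The most abundant, Cp_V2_contig_4317, had a log2 fold against fresh leaves of 1.07 (SE 0.49) and was not called. PCC13-62-like Cp_V2_contig_36163 was higher by 3.80 (SE 0.23), the Lea14 homolog Cp_V2_contig_22977 by 2.53 (SE 0.25) and LEA 6-like Cp_V2_contig_45054 by 5.84 (SE 0.25). The LEA 6-like contig was at 98.5, 99.9 and 74.4 RPKM in rehydrated leaves, against 1.32, 1.94 and 0.887 RPKM in fresh leaves, although it was at 2241 ± 87.3 RPKM when desiccated. Pyruvate decarboxylase 2 was higher than in fresh leaves by 5.81 (SE 0.73) and hemoglobin 1 by 5.29 (SE 1.01). Rehydrated replicate 3 was well above its partners at both contigs, which raises these folds. No fit against fresh leaves was made without it. Transketolase Cp_V2_contig_1819 was higher by 3.40 (SE 0.59) and Cp_V2_contig_15357 by 3.35 (SE 0.61), whereas Cp_V2_contig_951 was not called (-0.08, SE 0.57). In the other direction, the Rubisco small chain Cp_V2_contig_63 was lower than in fresh leaves by a log2 fold of -1.10 (SE 0.22) and the dehydrin Cp_V2_contig_802 by -1.12 (SE 0.26). The comparisons with desiccated and with fresh leaves share the rehydrated libraries.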

How the data were processed

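Leaf RNA from pools of plants was sequenced as 75 bp paired-end stranded libraries, per the labels' protocols. The authors deposited 1 table of contigs with counts of total and of uniquely matched reads, RPKM values and contig lengths for 12 libraries. The sources used here do not name the assembler, mapper or counting settings. The deposited RPKM values were recomputed from counts, lengths and library totals and differed by at most 1.6e-08 of the value. Differences between the 3 rehydrated and the 3 desiccated libraries were tested on the deposited counts of total reads with edgeR 4.0.16 in R 4.3.3, by the quasi-likelihood F test with TMM scaling, after a filter that asks for a count of 10 in enough libraries and 15 in all. Calls were made at a Benjamini-Hochberg adjusted p below 0.05. The fit was tested on simulated counts in which only a small part of the contigs differed. That setting cannot test the TMM assumption for data in which most contigs differ. Alternatives used DESeq2 1.42.0, limma 3.58.1, other scalings and filters, uniquely matched reads, all 12 libraries, a replicate block and each library left out. Shares and levels rest on 14787562 to 21271288 reads per library. Intervals and floors, with 3 reads as the floor per library, cover counting error only. Replicates are independent leaf pools, per the labels' protocols.

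Named contigs are the 10 with the highest and the 10 with the lowest fold among called, described, non-overlapping contigs in the upper 50% by mean level, 1 per description; the 5 at the highest level in each state and among those naming Craterostigma; and, for each list of descriptions, the most abundant member and the called members with the highest and lowest fold, of which some are left out. A further 30 contigs and the subsets within lists were chosen after their values were seen. The comparison, the 65 lists and the 8 marker lists were chosen with earlier results of these data known. Contigs were assigned to lists by words in their descriptions, and a contig may be in several.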

Additional observations from a re-analysis of the deposited data

How the results depend on the processing

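Of 137 named contigs under the alternatives, 1865 of 1915 values kept their direction and their side of the threshold, 29 lost the call, 13 gained one and 8 changed sign. Scaling by library totals alone, chosen after seeing the data, gave 19992 contigs higher and 9501 lower, and 6043 instead of 9198 at least 2-fold lower. It changed the sign of the median of 12 of 73 lists, against 0 with DESeq2's size factors in edgeR, and of Cp_V2_contig_12664 (0.11) and Cp_V2_contig_1735 (0.00). The sign of Cp_V2_contig_17307, not called at -0.03, also changed with library totals (0.38), with limma voom (0.08), with the replicate block (0.07), without rehydrated replicate 1 (0.03) or 2 (0.06) and without desiccated replicate 3 (0.44), and was -0.30 to 0.44 over all libraries left out in turn; the cause was not tested. Leaving out each library gave 14363 to 16099 contigs higher, 12139 to 14516 lower, 12549 to 12876 at least 2-fold higher and 8942 to 9662 at least 2-fold lower. The labels do not state that replicate numbers pair the libraries. Deviations of same-numbered libraries from their group means had r of -0.029 to -0.038, which over all contigs cannot show whether they shared a batch. With the replicate number as a block 15098 contigs were higher and 13333 lower. Of 2044 list counts under the alternatives 66 moved by over 1.5 times, 31 of them with scaling by library totals alone. Depth limits contigs with few reads, whose folds are given as bounds against no reads and with counting intervals at 1 to 3 reads.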

Other observations

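Contigs described as parts of retrotransposons, mobile elements that copy themselves through RNA, took 0.698, 0.782 and 1.04% of reads in rehydrated and 1.01, 1.15 and 1.32% in desiccated leaves. Of 477 tested contigs 145 were higher and 109 lower in rehydrated leaves, beside 35.3% and 30.9% of all contigs. The most abundant, a Ty1-copia element (Cp_V2_contig_4554) 3870 bases long, was at 440, 492 and 514 RPKM in rehydrated and 505, 705 and 879 RPKM in desiccated leaves (log2 fold -0.94, SE 0.21). The groups overlapped, and both were far above the 2.89, 3.61 and 2.76 RPKM of the fresh libraries, with a log2 fold of 7.12 (SE 0.33) for rehydrated over fresh leaves. Partly dried leaves were at 384 ± 98.3 RPKM (SD, n = 3).

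All 6 contigs of sodium/hydrogen exchanger 4, a transporter of inner membranes, were lower in rehydrated leaves, with a median log2 fold of -4.08. Cp_V2_contig_45899 was at 4.65, 4.9 and 2.9 RPKM in rehydrated and 32.3, 33.3 and 29.7 RPKM in desiccated leaves, with 0.246 RPKM in fresh leaves. Homologs of late blight resistance proteins, a family of immune receptors, had 138 of 237 tested contigs higher and 41 lower, with a median of 0.90. Markers of meristem and dividing cells had 7 of 17 tested contigs higher and 3 lower, with a median log2 fold of 0.24. Of these markers, the knotted-1-like homeobox contig LET12 (Cp_V2_contig_4095) rose by a log2 fold of 2.75 (SE 0.14). Lipid transfer proteins had 16 of 46 contigs higher and 18 lower, and took 0.104, 0.105 and 0.102% of reads in rehydrated and 0.278, 0.249 and 0.227% in desiccated leaves.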
